A study of Homo sapiens with 9 samples.

Results

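GDF15, ADM2 and STC2 are 3 human genes that encode secreted stress hormones, and their RNA was followed in MM.1S cells exposed to epigallocatechin gallate (EGCG). They are 3 of the 60675 genes in the deposited count table, found there by matching each Ensembl gene ID to its symbol. The trio was chosen by its measured counts at the 3 doses, so the counts and fold changes of these genes are given as a description, with no test. GDF15 and ADM2 passed the filter on low counts, GDF15 only through its libraries with EGCG. STC2 did not pass it. The data went against its place beside the other pair: it was read at most 3 times in any library.

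MM.1S is a cell line grown from a human multiple myeloma, a cancer of plasma cells, and EGCG is the main catechin of green tea. All cells were kept in the same RPMI medium with fetal bovine serum and antibiotics. The groups were control cells at 0 µM EGCG, cells at 40 µM and cells at 80 µM, each for 24 h and each with 3 libraries. The labels do not state whether the libraries of a dose came from separate cultures, and the p-values below measure only the spread between these libraries.

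GDF15 is a distant member of the TGF-beta superfamily. In the body it lowers food intake through GFRAL, a brainstem receptor that signals with the kinase RET, and cells under mitochondrial, endoplasmic reticulum or genotoxic stress secrete it. ADM2, also called intermedin, belongs to the calcitonin peptide family and acts on CALCRL, a receptor that needs a RAMP partner at the cell surface. STC2 is a glycoprotein that inhibits the protease PAPP-A and so limits the release of insulin-like growth factor from its binding proteins. ATF4, the transcription factor of the integrated stress response, is known to act on all these genes.

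The 250 bases before the start of ADM2 are shown because ADM2 and GDF15 were both read more often with dose and because this stretch is rich in GC boxes, a motif bound by SP1-type factors. They lie at chr22:50481293-50481542 on the plus strand (GRCh38.p14, from RefSeq), and the capitals mark the 3 GC boxes, read here on the minus strand.
ADM2 promoter: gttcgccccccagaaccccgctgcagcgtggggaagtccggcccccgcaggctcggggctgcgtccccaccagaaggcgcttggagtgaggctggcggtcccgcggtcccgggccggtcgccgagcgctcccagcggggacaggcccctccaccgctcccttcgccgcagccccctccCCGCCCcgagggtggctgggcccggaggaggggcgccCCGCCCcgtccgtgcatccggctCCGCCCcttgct
From GDF15, 30 bases at chr19:18386117-18386146 on the plus strand are shown, with the TATA box in capitals.
GDF15 core promoter: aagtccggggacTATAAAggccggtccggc

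The GC boxes of ADM2 (GGGCGG on either strand) covered bases -72 to -67, -35 to -30 and -12 to -7 before the start. GDF15 held 2 GC boxes, 1 CCAAT box and the TATA box, which lay at -29 to -24, and STC2 held 1 CCAAT box and no GC box. Of 35116 RefSeq promoter windows of the same length, 42.6% held a GC box, 32% the letters CCAAT and 10.7% the letters TATAAA, counting both strands. No window of the trio held TGATGNAA, the composite element of ATF4 and C/EBP proteins, which 3.14% of windows did. The cyclic AMP element TGACGTCA, the AP-1 site TGANTCA, the antioxidant response element TGACNNNGC, and the E-box CACGTG were not matched in any of the trio either, against 1.65, 6.57, 10.9 and 6.34% of windows. These letters say nothing of sites outside the windows or of whether a factor was bound. The GC content was 58.4% for GDF15, 78.8% for ADM2 and 63.6% for STC2, beside a median of 58% over all windows.

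GDF15 (ENSG00000130513, chromosome 19, 18374731 to 18389176, plus strand) was nearly silent in control cells. The control libraries held 0, 6 and 1 reads of it. At 40 µM the libraries held 86, 73 and 74 reads, and at 80 µM 633, 630 and 528. Every library of a higher dose lay above every library of a lower one. In CPM, which are counts scaled to library size with TMM factors, GDF15 averaged 0.174 ± 0.238 without EGCG, 5.29 ± 0.0805 with 40 µM and 42.7 ± 3.74 with 80 µM (mean ± SD of 3 libraries, as for all levels below). The lowest 40 µM library stood 11.8 times above the highest control library, and the lowest 80 µM library 7.44 times above the highest one at 40 µM. In bulk RNA like this, a change in how many cells express a gene and a change in RNA per cell cannot be told apart.

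The fitted log2 fold change of GDF15 was 4.89 ± 0.46 (SE) at 40 µM, 7.90 ± 0.42 at 80 µM and 3.01 ± 0.28 between the doses. Per total count the ratio was 30.9 at 40 µM, with an exact 95% binomial interval of 14.8 to 77.7, and 256 at 80 µM, with an interval of 124 to 637. The ratio of 80 to 40 µM was 8.27 (7.21 to 9.52). All these intervals cover counting error only, which over the tested genes was smaller than the spread between replicates. They describe genes chosen on these counts and test nothing. The values against control rest on 7 control reads, 6 of them in control replicate 2. Without that library the log2 fold changes were 6.89 and 9.91, while the value between the doses does not draw on the control reads.

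ADM2 (ENSG00000128165, chromosome 22, 50481556 to 50486440, plus strand) was present before treatment. Its control counts were 81, 45 and 72. They were 529, 356 and 394 at 40 µM and 1524, 1259 and 898 at 80 µM. Again no library of a higher dose fell among those of a lower one, although the 80 µM libraries were spread more widely than for GDF15. ADM2 averaged 4.76 ± 1.23 CPM without EGCG, 28.8 ± 3.35 CPM with 40 µM and 87.7 ± 22.6 CPM with 80 µM. Its coefficient of variation at 80 µM was 25.8%, against 8.77% for GDF15, with 80 µM replicate 1 the highest library of each gene.

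For ADM2 the log2 fold change was 2.59 ± 0.24 at 40 µM, 4.20 ± 0.24 at 80 µM and 1.60 ± 0.21 between the doses. The count ratios were 6.0 (5.16 to 7.0), 18.6 (16.1 to 21.5) and 3.10 (2.91 to 3.30), again with intervals for counting error only. The step from 0 to 40 µM made up 61.9% of the total log2 difference for GDF15 and 61.8% for ADM2, both against the same control libraries. The GDF15 share rests on 7 control reads, so its closeness to the ADM2 share depends on them. On the linear CPM scale the step from 0 to 40 µM was 12% of the difference for GDF15 and 29% for ADM2. The larger part of the added reads of each gene thus came between 40 and 80 µM.

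STC2 (ENSG00000113739, chromosome 5, 173314713 to 173329503, minus strand) was at the edge of detection. The control libraries held 0, 0 and 1 reads of it, those at 40 µM 3, 1 and 1 and those at 80 µM 2, 1 and 2. No library exceeded the floor of 3 counts, which corresponds to 0.183 to 0.237 CPM, and the groups overlapped. No fold change is given, because a difference was not detectable at this depth. Its relative STC1 had 1 read in all 9 libraries together.

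**Figure D1:**
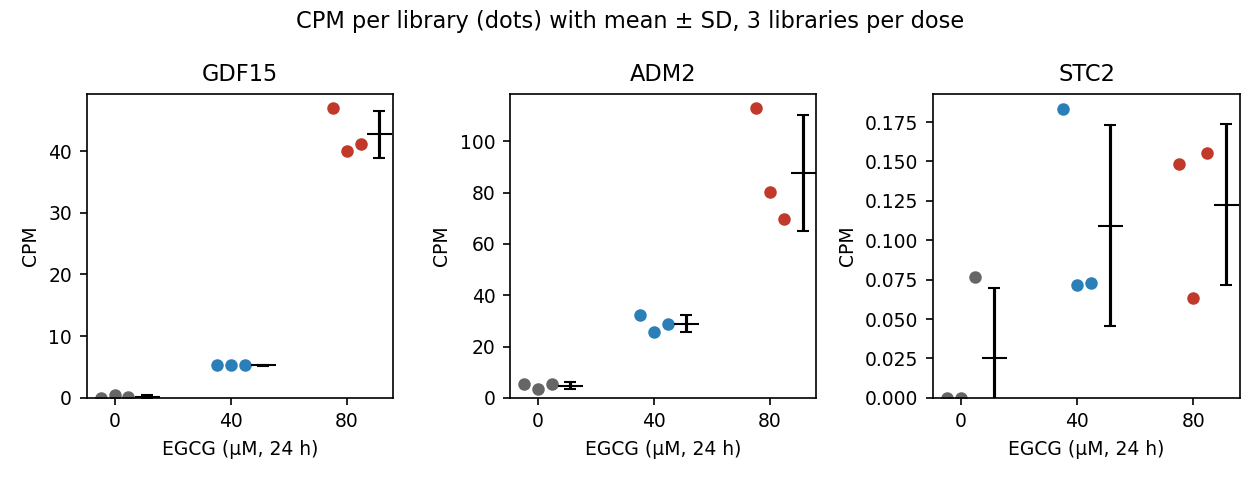
CPM of GDF15, ADM2 and STC2 (vertical axes, linear, each with its own scale) against EGCG dose. Each dot is 1 library, and the bar beside each group is the mean ± SD of 3 libraries. GDF15 goes from 0.174 to 5.29 to 42.7 CPM and ADM2 from 4.76 to 28.8 to 87.7 CPM with no overlap between doses, while the STC2 panel spans levels of at most 3 reads per library.

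The balance between both expressed hormones shifted between 40 and 80 µM. For each GDF15 read there were 7.5 ADM2 reads in control replicate 2 and 72 in control replicate 3, each over 6 or fewer GDF15 reads. Control replicate 1 had 0 GDF15 reads and so no ratio. At 40 µM the ratio was 6.15, 4.88 and 5.32, and at 80 µM 2.41, 2.00 and 1.70, so the treated groups did not overlap. Levels of different genes can be set side by side only per length. Per kb of the transcript matched to RefSeq (1200 bases for GDF15, 4276 for ADM2), GDF15 stood at 4.41 ± 0.0671 CPM and ADM2 at 6.74 ± 0.784 CPM at 40 µM. At 80 µM the order on these lengths was the other way round, with 35.6 ± 3.12 CPM per kb for GDF15 and 20.5 ± 5.29 for ADM2. On these lengths no library of one gene reached into the range of the other at either dose.

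The deposited FPKM values, which also divide by a gene length, gave the same order on average but with overlap at 80 µM. GDF15 had 0.0511 ± 0.0711, 1.51 ± 0.0608 and 12.5 ± 0.906 FPKM at 0, 40 and 80 µM, and ADM2 had 0.559 ± 0.137, 3.36 ± 0.459 and 10.4 ± 2.55 FPKM. The lengths that these FPKM imply were 3452 bases for GDF15, the sum of its 5 GENCODE transcripts, and 8489 bases for ADM2, longer than the 4811 bases of its 2 GENCODE transcripts together. The crossing of GDF15 over ADM2 therefore depends on the length used. Counting each exonic base once, GENCODE 29 gives 2087 bases for GDF15 and 4276 for ADM2. Per kb of those lengths, the 80 µM libraries of both genes would overlap. By mean FPKM, GDF15 ranked 24756, 9787 and 2432 among all genes at the 3 doses, and ADM2 ranked 14064, 6803 and 2905.

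**Figure D2:**
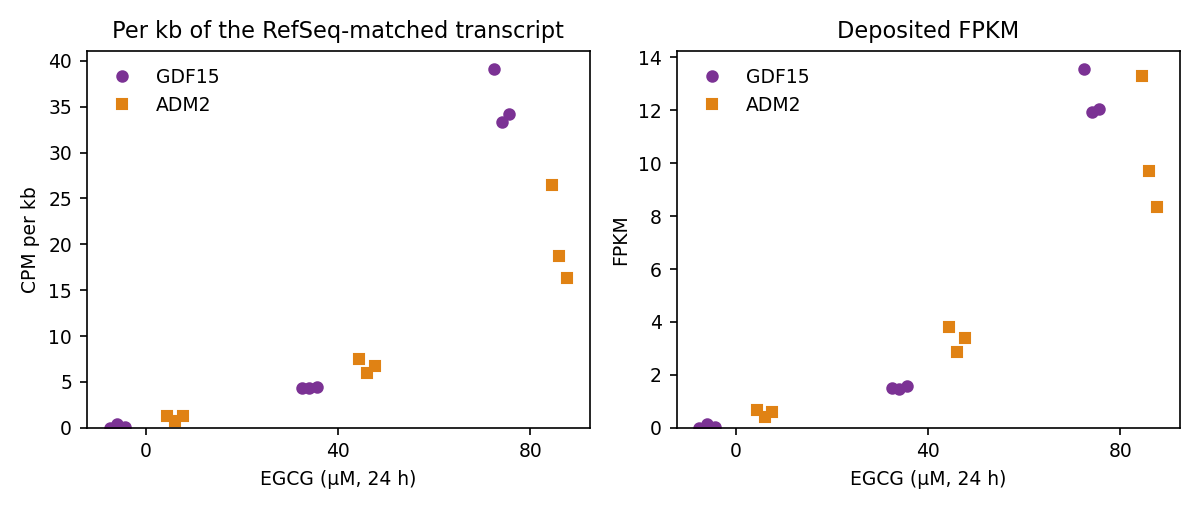
Length-scaled levels of GDF15 (purple circles) and ADM2 (orange squares) against EGCG dose, 1 point per library; the left panel shows CPM per kb of the RefSeq-matched transcript and the right panel the deposited FPKM. ADM2 lies above GDF15 at 40 µM in both panels, and at 80 µM GDF15 lies above ADM2 on the left (35.6 against 20.5 CPM per kb on average), while on the right the highest ADM2 library falls among those of GDF15.

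The counts of GDF15 could include those of MIR3189, a microRNA gene within it (chromosome 19, 18386562 to 18386634, plus strand). MIR3189 had 0 reads in the control group and 1 read in each treated group. None of the nearest tested genes on either side of the trio rose at any dose against control. Beside GDF15, PGPEP1, a peptidase gene 4781 bases away, differed from control at 80 µM by 0.41 ± 0.29 on the log2 scale (edgeR's quasi-likelihood test, adjusted p = 0.302). SSBP4, 29688 bases away on the other side, fell by 1.47 ± 0.16 on the log2 scale at 80 µM (adjusted p = 9.25e-05 in that fit). Beside ADM2, SBF1 differed by -0.15 ± 0.12 (adjusted p = 0.359) and LMF2, a gene of lipase maturation, fell by 0.76 ± 0.17 (adjusted p = 0.00615). BNIP1 and BOD1, the neighbours of STC2, differed by 0.08 ± 0.17 and -0.22 ± 0.14 at 80 µM (adjusted p = 0.742 and 0.248). At 40 µM no neighbour passed edgeR's test, while DESeq2 called SSBP4 lower (adjusted p = 0.0391, against 0.088 in edgeR).

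The genes whose log2 CPM followed GDF15 most closely over the 9 libraries were MKX (Pearson r = 0.996), APBB2 (0.991) and BMT2 (0.991). MKX, a homeobox transcription factor of tendon development, went from 0.487 ± 0.222 to 3.44 ± 0.568 and 13.7 ± 0.839 CPM. APBB2, an adaptor protein of the amyloid precursor, went from 3.82 ± 0.357 to 7.77 ± 0.329 and 15 ± 0.207 CPM, and BMT2, a regulator of nutrient signalling to mTORC1, from 10.0 ± 1.21 to 15.8 ± 0.53 and 22.5 ± 2.03 CPM. These 3 genes were likewise separated by dose, which follows largely from their choice by likeness to GDF15.

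For ADM2 the closest were STX11 (r = 0.988), PSAT1 (0.986) and ARHGAP9 (0.986). PSAT1, an enzyme of serine synthesis, went from 68.7 ± 2.82 to 191 ± 14.5 and 422 ± 26.7 CPM. STX11, a syntaxin of vesicle fusion in immune cells, went from 5.19 ± 0.195 to 7.39 ± 0.181 and 10.0 ± 1.05 CPM, and ARHGAP9 from 5.00 ± 0.606 to 13.4 ± 1.03 and 26.2 ± 3.10 CPM. The r between GDF15 and ADM2 was 0.960. The libraries fall into 3 dose groups, so these values describe the same 3 groups and carry no test. Of 10562 candidate genes averaging 5 CPM or more, 159 reached 0.95 with GDF15 and 116 with ADM2.

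The surrounding genes were read against the shares of all 15982 tested genes that passed an adjusted p of 0.05. At 40 µM 1.49% were called higher and 0.813% lower than control, at 80 µM 17.4% higher and 17.5% lower, and between 80 and 40 µM 10.9% higher and 12.1% lower. The median log2 fold change over all tested genes was 0.015 at 40 µM, -0.001 at 80 µM and -0.011 between the doses. All adjusted p-values below come from edgeR's quasi-likelihood test over these genes.

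The receptor side of GDF15 was almost empty in these cells. GFRAL had 0 reads in all 9 libraries, and RET had none in the control libraries, 0, 1 and 1 at 40 µM and 2, 6 and 0 at 80 µM. GFRA1, a GFRAL relative that binds GDNF, was the 1 tested gene of the 6 receptor genes listed, at 3.61 ± 0.859, 4.59 ± 1.04 and 4.08 ± 0.472 CPM at 0, 40 and 80 µM. It was not called at 80 µM (log2 fold change 0.18 ± 0.25, adjusted p = 0.606). It was called in no comparison by edgeR or DESeq2, and its unadjusted p was under 0.05 in 0 of 3 comparisons.

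Of 32 other TGF-beta superfamily ligands, 12 were tested and 9 had no read in any library. At 80 µM 2 rose and 4 fell, and at 40 µM 0 rose and 2 fell. At 40 µM 1 ligand had an unadjusted p under 0.05 in the higher direction, and DESeq2 called 1 higher. The list medians were -0.16 and -0.20 on the log2 scale. INHBE, the activin E subunit and a known hormone of the stressed liver, was counted 0, 3 and 5 times in the control libraries, 21, 26 and 9 times at 40 µM and 56, 57 and 48 times at 80 µM. It rose at 80 µM by 4.24 ± 0.59 (adjusted p = 0.000439), and BMP2, a bone morphogenetic protein, rose by 1.70 ± 0.46 (adjusted p = 0.0165). BMP2 was chosen after its values were seen. INHBE and BMP2 were sparse in the control and passed the filter on low counts only through libraries with EGCG. Their calls, and the count that rose, carry that selection.

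The 4 ligands that fell are growth factors and a Nodal antagonist. BMP6, an inducer of hepcidin, went from 119 ± 9.21 to 87.2 ± 5.78 and 64.6 ± 2.30 CPM and fell at 80 µM by 0.88 ± 0.10 on the log2 scale (adjusted p = 0.000135). GDF11, a relative of myostatin, fell by 1.41 ± 0.15 (adjusted p = 8.06e-05) and LEFTY2, an inhibitor of Nodal, by 0.86 ± 0.12 (adjusted p = 0.000387). TGFB1, chosen after its values were seen, fell by 0.73 ± 0.16 (adjusted p = 0.0055). The 40 µM calls of GDF11 (adjusted p = 0.031) and BMP6 (adjusted p = 0.0476) ended under 10 and 12 of 16 alternatives. The count that rose at 80 µM was 5 with no filter on low counts and 4 without any 1 of the 40 µM libraries, which let more of the sparse ligands into the test.

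In the ADM2 family, the receptor gene CALCRL rose at both doses. Of 10 genes 4 were tested. At 80 µM 2 rose and 1 fell, and at 40 µM 1 rose and 0 fell (0 fell at an unadjusted p under 0.05, and 0 by DESeq2). CALCRL, the receptor subunit for ADM2, was counted 27, 15 and 14 times in the control libraries, 61, 58 and 66 times at 40 µM and 96, 123 and 79 times at 80 µM. The groups did not overlap. CALCRL rose by 1.65 ± 0.25 at 40 µM (adjusted p = 0.00825) and by 2.38 ± 0.25 at 80 µM (adjusted p = 7.64e-05), and its call between the doses (0.74 ± 0.22, adjusted p = 0.0376) ended under 8 of 16 alternatives.

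The RAMP partners of CALCRL were nearly absent. RAMP1 and RAMP2 had 0 reads in every library, and RAMP3 had 4, 3 and 0 at 80 µM and none elsewhere. ADM, the peptide most like ADM2, was at 86.2 ± 10.2, 84.2 ± 9.99 and 66.9 ± 1.63 CPM at the 3 doses, and fell by 0.37 ± 0.12 at 80 µM (adjusted p = 0.0417). CALCB, a calcitonin gene-related peptide, rose at 80 µM by 1.27 ± 0.39 (adjusted p = 0.0293), with 22 reads in the control group and 54 at 80 µM. CALCB passed the filter on low counts only through the 80 µM libraries, so its call as higher carries that selection. The calls of ADM and CALCB ended under 8 and 6 of 16 alternatives, library totals alone among them for ADM and DESeq2 for CALCB. CRCP, a receptor component protein, varied widely at 40 µM, with counts of 190, 661 and 497, and differed from control by 1.36 ± 0.47 (adjusted p = 0.154).

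Around STC2, 8 of 17 genes were tested. At 80 µM 2 rose and 0 fell, and at 40 µM none was called (0 genes). At 40 µM 0 were higher and 1 was lower at an unadjusted p under 0.05, and DESeq2 called 0, while at 80 µM 2 were lower at an unadjusted p under 0.05 and DESeq2 called 0 lower. PAPPA, the protease that STC2 inhibits, had 11, 7 and 16 reads per group and was not tested. IGF2R, which clears insulin-like growth factor 2, was at 280 ± 20.4, 303 ± 12.9 and 431 ± 43.0 CPM and rose at 80 µM by 0.62 ± 0.10 (adjusted p = 0.00118). INSR, the insulin receptor, rose by 1.07 ± 0.25 (adjusted p = 0.00727). The binding protein IGFBP6 and the calcium sensor STIM2 differed by -1.07 ± 0.44 and -0.28 ± 0.11 (adjusted p = 0.0856 and 0.0628).

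Of 12 enzymes of the secretory pathway, most of which cut or amidate prohormones, 7 were tested, and at 80 µM 2 rose and 0 fell (0 lower at an unadjusted p under 0.05, and 0 by DESeq2). None was called at 40 µM, where 0 had an unadjusted p under 0.05 and DESeq2 called 0. PAM, which amidates peptides such as ADM2, rose at 80 µM by 0.45 ± 0.11 (adjusted p = 0.012). PCSK5, a proprotein convertase, rose by 0.72 ± 0.25 (adjusted p = 0.0478), a call that ended under 11 of 16 alternatives. PCSK7, another convertase, differed from control by 0.13 ± 0.13 at 80 µM (adjusted p = 0.466), and its call between the doses (0.41 ± 0.13, adjusted p = 0.0481) also ended under 11 of 16 alternatives. FURIN, the convertase that acts on many TGF-beta family precursors and was chosen after its values were seen, differed by -0.05 ± 0.15 (adjusted p = 0.837), and CPD, a carboxypeptidase, by 0.63 ± 0.28 (adjusted p = 0.105).

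More of the other secreted stress factors were called higher than lower at 80 µM. Of 26 listed, 13 were tested, and at 80 µM 6 rose and 2 fell, with a list median of 0.49 on the log2 scale. At 40 µM 0 were called, while 3 were higher and 1 lower at an unadjusted p under 0.05 and DESeq2 called 1 each way. TSLP, a cytokine of epithelial alarm, had 10, 29 and 96 reads per group and rose at 80 µM by 3.2 ± 0.49 (adjusted p = 0.000722). TSLP and INHBE, which is also in this list, passed the filter on low counts only through libraries with EGCG. Their calls, and the count that rose, carry that selection. AREG, a ligand of the EGF receptor, rose by 1.8 ± 0.31 (adjusted p = 0.00132). VEGFB, a growth factor of the VEGF family, fell by 0.84 ± 0.15 (adjusted p = 0.0018), and the other gene that fell was ADM, described above. FGF21, the other hormone widely used as a marker of the integrated stress response, had 3 reads in all at 80 µM and none elsewhere. The cytokine gene LIF, chosen after its values were seen, had 0 reads in the 6 libraries at 0 and 40 µM and 11, 2 and 6 at 80 µM.

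Among sensors, transcription factors and feedback genes of the stress pathways, 23 of 24 genes were tested. At 40 µM 5 rose and 0 fell, and at 80 µM 11 rose and 0 fell (edgeR's test; at an unadjusted p under 0.05 1 was lower at 40 µM and 0 at 80 µM, and DESeq2 called 0 lower at either dose). The list medians were 0.21 and 0.54 on the log2 scale. The count at 40 µM was 2 with only the 6 libraries of control and 40 µM fitted and without control replicate 1, and 3 without control replicate 2, control replicate 3 or 40 µM replicate 2.

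TRIB3, a pseudokinase that curbs ATF4, went from 34.4 ± 4.59 to 117 ± 7.06 and 571 ± 22.5 CPM and rose by 4.05 ± 0.12 at 80 µM (adjusted p = 1e-07). CEBPB, a bZIP partner of ATF4, rose by 1.08 ± 0.12 at 40 µM (adjusted p = 0.00137) and by 2.82 ± 0.12 at 80 µM (adjusted p = 4.47e-07). DDIT3, which encodes CHOP, rose by 1.00 ± 0.19 and 2.77 ± 0.20 (adjusted p = 0.0277 and 7.87e-06), and its 40 µM call ended under 6 of 16 alternatives. PPP1R15A, the stress-induced phosphatase subunit that restores translation, rose by 2.21 ± 0.13 at 80 µM (adjusted p = 3.34e-06), where its value at 40 µM was 0.32 ± 0.13 (adjusted p = 0.202). EIF2AK4, the amino acid sensor GCN2, rose by 1.45 ± 0.09 at 80 µM (adjusted p = 3.73e-06).

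ATF4 itself was uneven between replicates. It was counted 4576, 3795 and 1420 times in the control libraries, 3103, 5272 and 2070 times at 40 µM and 10066, 3484 and 9345 times at 80 µM. The groups overlapped, with 1 of the 3 libraries at 80 µM below the highest control library. The log2 fold change at 80 µM was 1.28 ± 0.51 (adjusted p = 0.0766), and without 80 µM replicate 2 the adjusted p was 0.0212. In that library GDF15 stood at 40.0 CPM, beside 47.0 and 41.1 CPM in the other libraries at 80 µM. That is 1 library, and a link between the RNA of ATF4 and that of GDF15 was not tested. EGR1, an immediate early factor, differed by -0.29 ± 0.44 at 80 µM (adjusted p = 0.651).

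**Figure D3:**
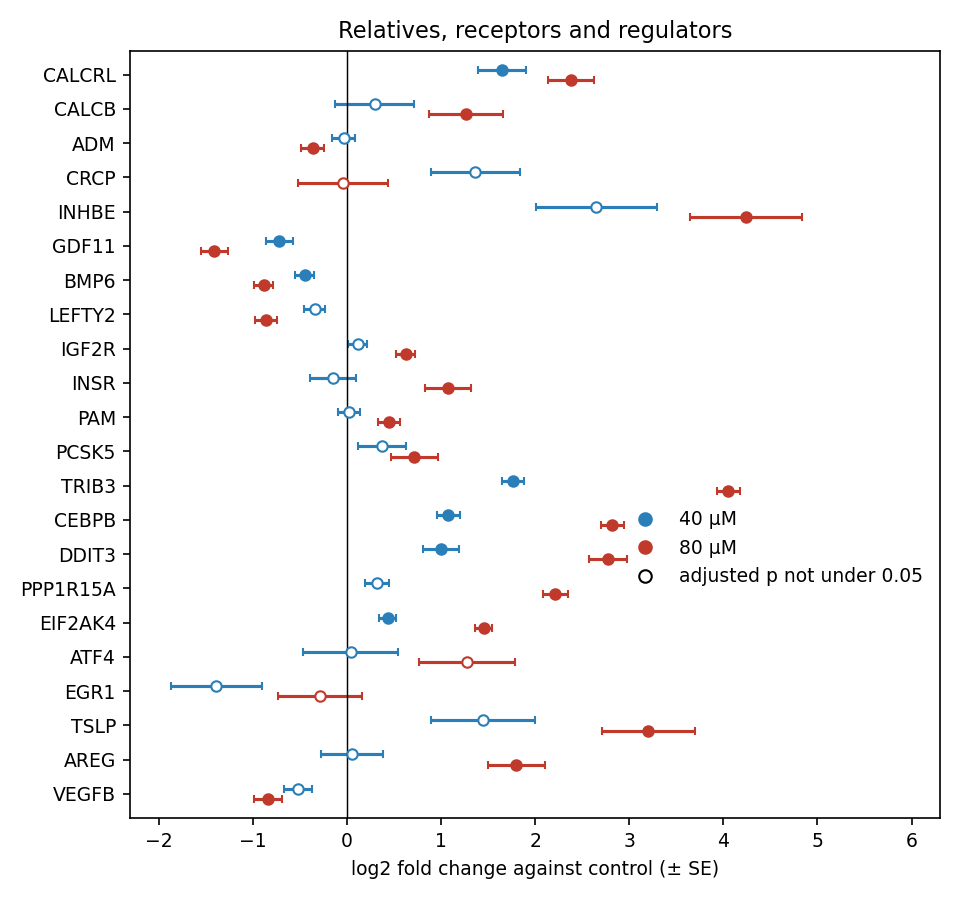
Log2 fold change against control (horizontal axis, ± SE) of 22 relatives, receptors, processing enzymes, stress pathway genes and other secreted factors. Values are at 40 µM (blue) and 80 µM (red), from the fit to 9 libraries. INHBE, CALCB and TSLP passed the filter on low counts only through libraries with EGCG. Filled points passed an adjusted p of 0.05 and open points did not; CALCRL, INHBE, TRIB3, CEBPB and DDIT3 lie to the right at 80 µM, and GDF11, BMP6, LEFTY2 and VEGFB to the left.

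Target genes of ATF4, most of them enzymes and transporters of amino acid supply, are where the integrated stress response acts. Of 27 tested ATF4 targets, 18 rose and 1 fell at 40 µM, and 25 rose and 1 fell at 80 µM. The medians were 0.85 and 1.66 on the log2 scale. The list shares genes with that of the sensors and transcription factors, so the counts of both lists partly cover the same genes. Between the doses 23 were higher at 80 µM and 0 lower (0 lower at an unadjusted p under 0.05 and by DESeq2). PSAT1 rose by 1.47 ± 0.10 at 40 µM (adjusted p = 7.62e-05) and by 2.62 ± 0.10 at 80 µM (adjusted p = 2.27e-07). ALDH1L2, a mitochondrial enzyme of folate metabolism, rose by 1.95 ± 0.13 and 3.27 ± 0.14 (adjusted p = 7.62e-05 and 3.36e-07). The 1 that fell was DDIT4, an inhibitor of mTORC1 named after its values were seen, by 1.13 ± 0.15 at 40 µM and 0.66 ± 0.15 at 80 µM (adjusted p = 0.00434 and 0.0066). With only the 6 libraries of control and 40 µM fitted, or without control replicate 1, 11 ATF4 targets were called higher at 40 µM. Members of the list rose at the doses where GDF15 and ADM2 were higher, and their part in the hormone levels was not tested.

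**Figure D4:**
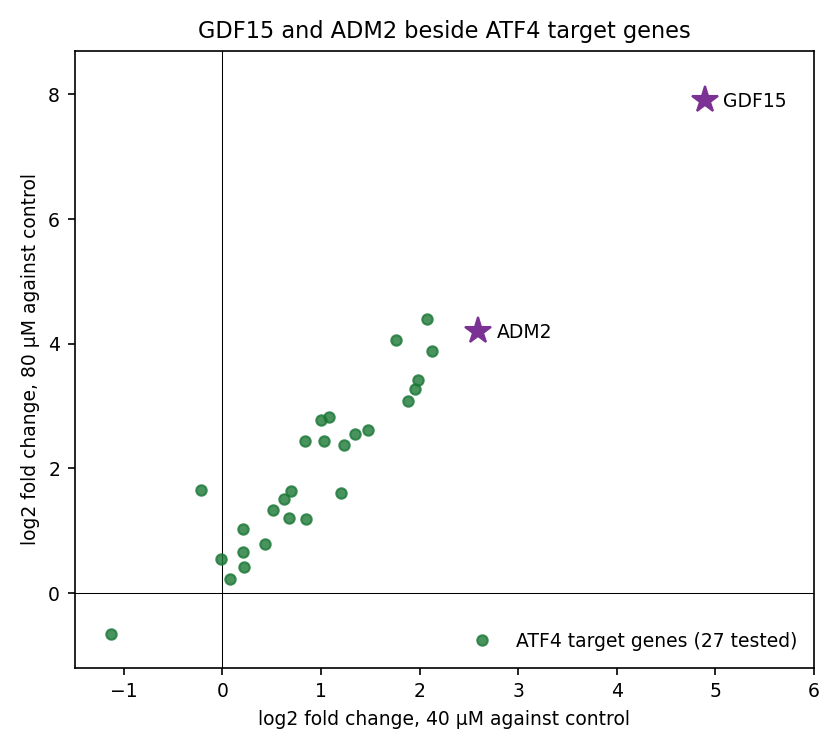
Log2 fold change at 40 µM (horizontal) and at 80 µM (vertical) of 27 tested ATF4 targets (green circles), with GDF15 and ADM2 as purple stars; both axes use the same control libraries, so the points are not independent between axes. GDF15 at 4.89 and 7.90 lies above and to the right of every listed target. ADM2 at 2.59 and 4.20 lies to the right of every listed target and below 1 of them on the vertical axis. The pair was chosen by its counts at these doses, so its place beside the targets is a description only.

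Markers of other cell types were low in all libraries. Monocyte markers summed to 5.21 to 15.9 CPM with S100A8 at 0, stromal markers to 1.62 to 3.90 CPM with COL1A2 and LUM at 0, and T and NK markers to 3.35 to 7.50 CPM with CD3D and NKG7 at 0 in all 9 libraries. Not all were silent: 5 of 8 monocyte, 3 of 8 stromal and 3 of 6 T and NK markers exceeded 3 counts in some library. The 10 plasma cell markers, all counted, summed to 6946 to 7410 CPM in the control, 6588 to 7295 at 40 µM and 5841 to 6643 at 80 µM. Mature B cell markers, with CD22 at 0, summed to 19.6 to 23.0, 14.0 to 17.3 and 8.20 to 8.61 CPM, most of it from CR2. At 80 µM 2 of the 10 plasma cell markers were called higher and 4 lower, 1 of 2 tested T and NK markers lower (CD3E), the 1 tested mature B marker lower (CR2) and 1 of 2 tested stromal markers higher (ACTA2). ACTA2, a smooth muscle actin, had 0 reads in the control libraries, 12, 4 and 4 at 40 µM and 10, 6 and 12 at 80 µM. These marker genes were named after their values were seen. The mature B cell sum was lower at each higher dose without overlap, the plasma cell sum overlapped between control and 40 µM, and their part in the hormone levels was not tested. Library totals ran from 12674490 to 16427343 counts.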

How the data were processed

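RNA was sequenced from 9 MM.1S libraries, 3 at each of 0, 40 and 80 µM EGCG. Per the file headers, the authors deposited 1 table with a read count and an FPKM value per gene and library. The deposited counts are whole numbers without normalization, and the deposited FPKM values divide by gene length and library size and served only as a description. In the submitters' processing notes, the names are GRCh38 with HISAT2, SAMtools 1.3.1, CASAVA 1.8 and edgeR, without their roles. Not given in the sources used here are the counting program, its strand setting and the annotation, so reads of genes that overlap on opposite strands may be mixed. Of 60675 gene IDs, 60656 matched a symbol and 58444 are in GENCODE 29, which gave the coordinates.

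The filter filterByExpr, applied by group, kept 15982 genes. Genes sparse in the control could enter through the treated libraries alone, GDF15, INHBE, BMP2, TSLP, CALCB and ACTA2 among them. Counts were scaled by TMM (factors 0.945 to 1.03) and tested by quasi-likelihood in edgeR 4.0.16 (R 4.3.3), with dose as 1 factor over all 9 libraries, 6 residual degrees of freedom, a prior count of 0.125 and a common biological coefficient of variation of 0.187. All doses shared 1 dispersion, as a group of 3 alone estimates it poorly. Calls needed an adjusted p (Benjamini-Hochberg, over all tested genes) under 0.05. The script was tested on simulated data. STC2 did not reach the filter, so it has no value in the fit reported. The standard error of a log2 fold change is its size over the root of the F statistic. Alternatives were DESeq2 1.42.0, limma-voom (limma 3.58.1), RLE factors, library totals alone, no filter, only the 6 libraries compared, a replicate block, leaving out each library and, for GDF15 and ADM2, a prior count of 2 and the ratio of mean FPKM. No pair of replicates agreed within counting noise.

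The 3 genes and the 9 gene lists (169 genes, 111 tested, 12 in 2 lists) were chosen with earlier results of these data known. The text names, per list, the 4 tested genes with the smallest p at 80 µM against control, 13 receptors, relatives and regulators set by name, for each hormone the 3 tested genes with the highest Pearson r of log2 CPM (prior count 2, mean of at least 5 CPM) and the nearest tested gene on each side. Results on 1 of the named genes, the list tied to it and some marker genes are not reported here. A gene outside this rule is marked as chosen after its values were seen. The 3 most alike genes of STC2 were not computed, since it did not enter the fit. Promoter windows are RefSeq's. The GDF15 window is shown in part and that of STC2 not at all, because they overlap annotated untranslated exons.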

Additional observations from a re-analysis of the deposited data

How the results depend on the processing

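ADM2 kept its size under every alternative run: leaving out each library gave 2.40 to 2.71 at 40 µM, 3.97 to 4.35 at 80 µM and 1.37 to 1.75 between the doses. GDF15 moved only against control, where it rests on 7 reads. At 40 µM its 4.89 became 4.13 with a prior count of 2 and 4.29 to 6.89 without 1 library, and at 80 µM its 7.90 became 7.11 and 7.30 to 9.91. For STC2 no alternative is reported, because no library exceeded 3 counts.

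The genes called at 40 µM, 368 in the fit reported, were 228 with no filter, 153 with only the 6 libraries compared, 859 with DESeq2 and 136 to 469 without 1 library. The count moved by over 1.5 times without control replicate 1 or 3, without 40 µM replicate 2 or 3 and without 80 µM replicate 2 or 3. Those at 80 µM, 5574, were 4170 to 5775 without 1 library, and those between the doses, 3674, were 2101 to 4059, lowest without 80 µM replicate 2 (2101) and replicate 3 (2288). Of the list genes, 29 were called at 40 µM, which became 17 with only the 6 libraries compared and 16 to 26 without 1 library, lowest without control replicate 1 (16) and 40 µM replicate 3 (18). The 70 at 80 µM and 55 between the doses ranged over 63 to 75 and 44 to 56 under all alternatives. Of the named genes' 80 µM values, 692 kept their side of the threshold over the settings, 25 lost it, 3 gained it and none reversed.

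Replicates share numbers across doses, and the labels do not say whether the numbers pair the samples. Deviations of same-numbered libraries correlated at -0.139 to 0.0513, so no shared replicate effect was seen. With 3 libraries per group these values cannot exclude a pairing. With the replicate number as a block, the fit called 183 genes at 40 µM, 5069 at 80 µM and 20 list genes at 40 µM.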
